A study of Mus musculus with 17 samples.

Results

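Dbp, Tef, Hlf, Nfil3, Ciart, Bhlhe40, Bhlhe41, Usp2, Wee1 and Tsku are output genes of the circadian clock, and their mRNA levels were followed in mouse kidney cortex. All 10 were found by symbol among the 48795 genes of the counts table. They were chosen by name as clock-controlled genes at a time when their levels in these same libraries, in CPM (read counts scaled to library size), were known, so their levels and differences are given as a description, without a test. Poly(A) mRNA was sequenced from cortices in 17 libraries in 4 groups, each labelled as a mouse of its own. WT and GCERAd hold more libraries than the methods give mice per cohort. In the paper's supplement some samples carry another sample's name with an added letter, but these names are not matched to the libraries here. Repeat libraries of the same mouse thus cannot be told apart from separate mice, and n counts libraries. The 5 libraries labelled WT are of wild-type mice. The mice of the 5 GCERAd libraries (ATF4 KO) carried floxed Atf4 alleles and a CreER recombinase under part of the Ggt1 promoter, which is active in proximal tubules, and received tamoxifen once a day on 2 days from 6 weeks of age. The 3 TRACK libraries are of the TRAnsgenic model of Cancer of the Kidney, in which a constitutively active HIF1α is made in proximal tubules. The 4 GCERAdT libraries are labelled TRACK-ATF4 KO, that is, both changes in 1 animal. For WT and GCERAd, a 16 h fast in metabolic cages about a month after the injection preceded collection. Age, fasting and tamoxifen are not given for TRACK and GCERAdT in the sources used here, nor is the time of day of collection for any group.

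The circadian clock is a transcriptional loop that runs in nearly every cell. CLOCK (or NPAS2) and BMAL1, the product of Arntl, bind E-boxes (CACGTG) and turn on Per and Cry genes, whose proteins then silence them, while REV-ERB (Nr1d1, Nr1d2) and ROR proteins act in opposition at ROR elements, for example at Arntl. Output genes carry this rhythm to the rest of the cell. DBP, TEF and HLF are the PAR bZIP transcription factors, which activate genes through D-boxes such as TTATGTAA, and NFIL3 (E4BP4) is a repressor that binds the same D-boxes. In the kidney and liver the PAR bZIP factors are known for their control of detoxifying enzymes, among them Alas1, Por and cytochromes P450. CIART, BHLHE40 (DEC1) and BHLHE41 (DEC2) repress transcription driven by CLOCK and BMAL1, USP2 is a deubiquitinase, WEE1 is a kinase that delays entry into mitosis, and Tsku encodes tsukushi, a secreted leucine-rich repeat protein.

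RefSeq promoter windows (GRCm38.p6) of 250 bases before the transcription start were held for 8 of the 10 genes, and Bhlhe40 and Wee1 were not among them. The windows below are shown because they hold the letters through which the clock is known to act on these genes, and capitals mark the motif found on either strand. The E-box CACGTG was in 4 of the 10 windows, those of Ciart, Tef (at both of its starts) and Bhlhe41, against 6.02% of 32851 mouse promoter windows of this length. Ciart had 3 of them, ending 111, 53 and 39 bases before the start.
Ciart, chr3:95882229-95882478, minus strand: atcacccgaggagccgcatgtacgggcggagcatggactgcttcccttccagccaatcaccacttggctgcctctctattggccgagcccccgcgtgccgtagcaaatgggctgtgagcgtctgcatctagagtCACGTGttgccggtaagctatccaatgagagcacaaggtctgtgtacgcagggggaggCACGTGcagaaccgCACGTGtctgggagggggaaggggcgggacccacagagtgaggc
Tef, upstream start, chr15:81802423-81802672, plus strand: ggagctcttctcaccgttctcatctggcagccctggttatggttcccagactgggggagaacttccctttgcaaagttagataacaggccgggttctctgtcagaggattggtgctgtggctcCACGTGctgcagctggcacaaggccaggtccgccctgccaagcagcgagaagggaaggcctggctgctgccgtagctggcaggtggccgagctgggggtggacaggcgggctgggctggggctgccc
Tef, downstream start, chr15:81811164-81811413, plus strand: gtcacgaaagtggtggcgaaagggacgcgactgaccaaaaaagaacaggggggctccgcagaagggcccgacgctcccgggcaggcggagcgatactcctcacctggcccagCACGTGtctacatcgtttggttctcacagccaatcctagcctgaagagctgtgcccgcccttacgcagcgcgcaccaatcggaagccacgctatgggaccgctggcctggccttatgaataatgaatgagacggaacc
Bhlhe41, chr6:145865421-145865670, minus strand: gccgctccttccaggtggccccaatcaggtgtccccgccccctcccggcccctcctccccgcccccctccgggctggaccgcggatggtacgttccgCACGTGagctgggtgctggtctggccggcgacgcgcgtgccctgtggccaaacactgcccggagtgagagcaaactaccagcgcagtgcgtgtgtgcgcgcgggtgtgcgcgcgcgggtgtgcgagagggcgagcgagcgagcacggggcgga
Nfil3, chr13:52981040-52981289, minus strand: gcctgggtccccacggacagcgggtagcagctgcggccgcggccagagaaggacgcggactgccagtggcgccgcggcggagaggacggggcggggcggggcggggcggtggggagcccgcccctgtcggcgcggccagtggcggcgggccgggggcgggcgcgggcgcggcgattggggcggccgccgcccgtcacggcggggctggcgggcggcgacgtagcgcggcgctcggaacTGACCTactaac
The core of the ROR element, AGGTCA (on the other strand TGACCT), stood 12 to 7 bases before the start of Nfil3, and 14.0% of all windows held these letters. The D-box letters TTATGTAA (0.819% of all windows) and TTACGTAA (0.113%) were in none of the 10 windows, and a cyclic AMP response element, TGACGTCA (1.55% of all windows), was found in that of Hlf only. A match of letters is a description of the window and not a binding site.

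Each library held 53688512 to 71364561 gene counts, so that even Ciart, the least abundant of the 10 genes per transcript length in WT, was counted. CPM below are on library totals scaled by trimmed mean of M values. Several facts about the libraries touch every comparison. Transcripts of Atf4 were lower in GCERAd (64.6 CPM) than in WT (84.8 CPM; log2 fold difference -0.38 ± 0.11 SE, edgeR quasi-likelihood adjusted p = 0.0218), with overlapping values, and did not pass the test without WT 5 or GCERAd 3 (adjusted p up to 0.0559). They were not lower in the libraries labelled GCERAdT (93.3 CPM) than in TRACK (83.6 CPM, log2 difference 0.17 ± 0.11, adjusted p = 0.367), so these counts do not bear out this label. The counts take in the whole gene and every cell type of the cortex. Xist was at 147 to 422 CPM in WT and at most 6.06 CPM elsewhere, while the Y-linked Ddx3y had no count in WT and 49.7 to 79.9 CPM in all other libraries, so genotype and sex cannot be told apart in comparisons with WT. The GCERAd libraries 4 and 5 stood apart from GCERAd 1 to 3, with Fkbp5 at 206 to 212 CPM against 49.3 to 75.9 CPM. The share of processed pseudogene counts (library kind) was 0.070 to 0.078% in TRACK and 0.033 to 0.037% in WT, except 0.064% in WT 2. Library kind and genotype thus can hardly be told apart in TRACK over WT. GCERAd and GCERAdT each held libraries of both kinds. All 9 proximal tubule markers were present in every group, with a summed level of 7167 to 8740 CPM in WT, 8106 to 11303 CPM in GCERAd, 4623 to 5348 CPM in TRACK and 5118 to 6033 CPM in GCERAdT. In bulk cortex, fewer cells of a type and less RNA per cell cannot be told apart.

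Dbp, a PAR bZIP factor known for its strong daily rhythm, had its highest levels in GCERAd and TRACK and its lowest in GCERAdT. In WT, Dbp was at 50.7, 45.2, 40.8, 59.9 and 58.9 CPM in libraries 1 to 5. In GCERAd, it was at 129, 137, 118, 105 and 76.2 CPM. In TRACK, the values were 109, 106 and 95.0 CPM, and in GCERAdT 9.01, 15.1, 13.2 and 9.48 CPM. Every GCERAd and TRACK library was above every WT library, and every GCERAdT library was below all of them. The mean was 51.1 ± 8.36 CPM in WT (SD, n = 5), 113 ± 23.9 CPM in GCERAd (n = 5), 103 ± 7.18 CPM in TRACK (n = 3) and 11.7 ± 2.94 CPM in GCERAdT (n = 4). On the log2 scale Dbp differed by 1.16 ± 0.16 (SE) in GCERAd and by 1.01 ± 0.12 in TRACK, each over WT. The difference was -3.13 ± 0.18 for GCERAdT over TRACK and -3.29 ± 0.22 for GCERAdT over GCERAd. GCERAdT thus held 8.77-fold less Dbp than TRACK and 9.77-fold less than GCERAd.

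Tef, the most abundant of the 10 genes per transcript length in WT, was also high in GCERAd and TRACK and lowest in GCERAdT. Its spread between libraries of a group was little. WT libraries were at 183, 194, 191, 179 and 190.0 CPM, and GCERAd libraries at 337, 325, 345, 352 and 348 CPM. TRACK libraries were at 389, 382 and 341 CPM, and GCERAdT libraries at 126, 128, 135 and 146 CPM. GCERAd and TRACK overlapped each other and lay apart from WT, and GCERAdT lay below WT. The log2 difference was 0.88 ± 0.06 for GCERAd over WT and 0.99 ± 0.07 for TRACK over WT. For GCERAdT it was -1.46 ± 0.09 over TRACK and -1.37 ± 0.08 over GCERAd. Hlf, the third PAR bZIP factor, differed least of the 3. Its mean was 123 ± 15.7 CPM in WT, 174 ± 18.3 CPM in GCERAd, 182 ± 18.6 CPM in TRACK and 123 ± 18.2 CPM in GCERAdT. WT (96.1 to 134 CPM) and GCERAdT (109 to 149 CPM) overlapped, so that for Hlf the GCERAdT level was not below WT as it was for Dbp and Tef. The log2 difference of Hlf was 0.52 ± 0.10 for GCERAd over WT, 0.57 ± 0.11 for TRACK over WT, -0.56 ± 0.12 for GCERAdT over TRACK and -0.52 ± 0.12 for GCERAdT over GCERAd.

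Nfil3, the repressor at the D-box, ran opposite to the 3 activators. WT libraries held 7.01, 5.49, 8.14, 7.39 and 9.77 CPM of Nfil3. GCERAd libraries held 1.75, 2.09, 2.19, 2.97 and 3.40 CPM and TRACK libraries 4.65, 4.96 and 3.66 CPM. GCERAdT libraries held 11.6, 7.34, 6.38 and 9.47 CPM. GCERAd was lowest, TRACK came next with no overlap on either side, and WT and GCERAdT overlapped. The log2 difference was -1.59 ± 0.21 for GCERAd over WT and -0.77 ± 0.20 for TRACK over WT, while it was 0.98 ± 0.23 for GCERAdT over TRACK and 1.79 ± 0.24 for GCERAdT over GCERAd. Set against each other within a library, the CPM of Dbp was 5.01 to 8.23 times that of Nfil3 in WT, 22.4 to 73.7 times in GCERAd and 21.4 to 25.9 times in TRACK. In GCERAdT this ratio was 0.776 to 2.07, below every other library. The ratio of Tef to Nfil3 was 19.4 to 35.3 in WT, 102 to 192 in GCERAd, 77.2 to 93.0 in TRACK and 10.9 to 21.1 in GCERAdT, the last overlapping with WT. These ratios are not corrected for gene length and serve only to compare libraries.

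**Figure D1:**
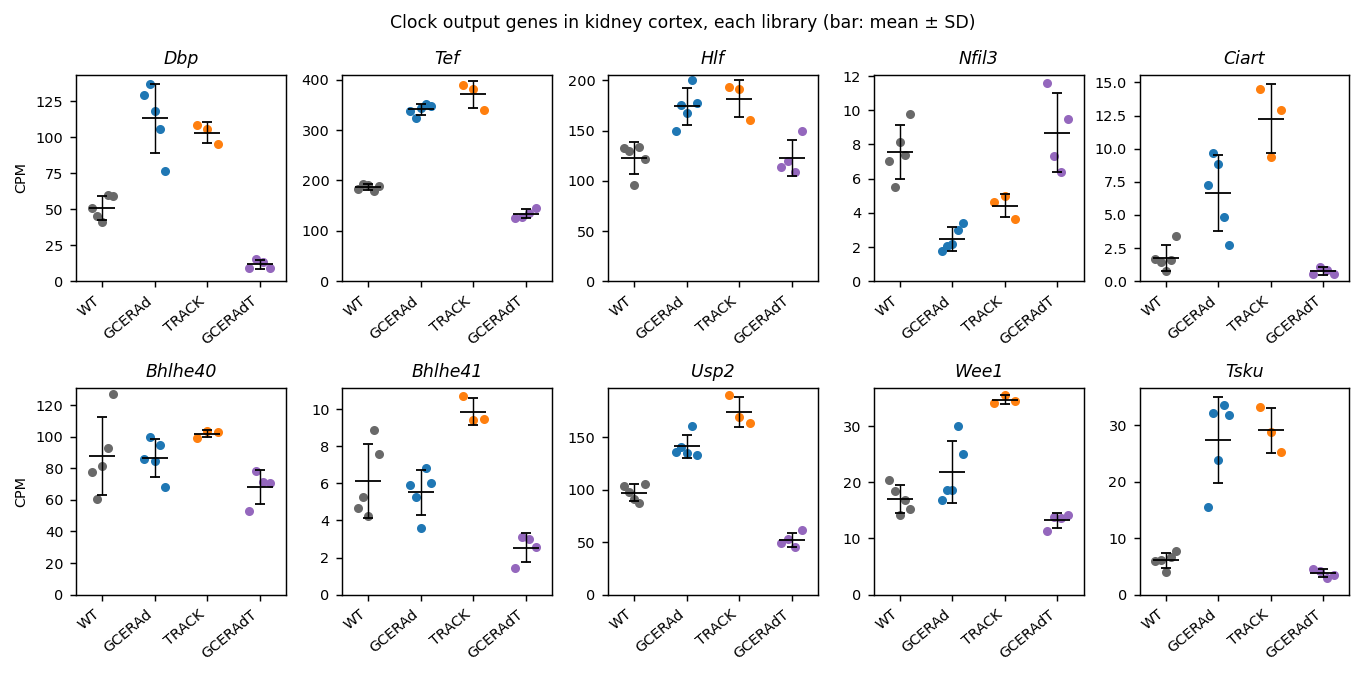
CPM of the 10 clock output genes (vertical axes, each from 0) in the 17 libraries, by group. Points are libraries and bars the mean ± SD. Dbp, Tef, Ciart, Usp2 and Tsku were high in GCERAd and TRACK and low in GCERAdT, and Nfil3 showed the opposite order.

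Among the repressors of CLOCK and BMAL1, Ciart differed most between groups. It was at 1.68, 1.45, 0.745, 1.60 and 3.38 CPM in WT and at 7.26, 9.66, 8.88, 4.84 and 2.73 CPM in GCERAd. It reached 14.5, 9.40 and 12.9 CPM in TRACK and only 0.530, 1.11, 0.885 and 0.547 CPM in GCERAdT. GCERAd 5 lay within the WT range, and the GCERAdT and WT ranges overlapped, whereas TRACK and GCERAdT were far apart. The log2 difference was 1.92 ± 0.41 for GCERAd over WT, 2.79 ± 0.36 for TRACK over WT, -3.99 ± 0.30 for GCERAdT over TRACK and -3.14 ± 0.41 for GCERAdT over GCERAd, the size of a 15.9-fold lower level than in TRACK. Bhlhe41 was higher in TRACK (9.40 to 10.7 CPM) than in WT (4.24 to 8.86 CPM) and GCERAd (3.61 to 6.85 CPM), and it was lowest in GCERAdT (1.43 to 3.13 CPM). Its log2 difference was 0.69 ± 0.23 for TRACK over WT and, for GCERAdT, -1.95 ± 0.25 over TRACK and -1.16 ± 0.25 over GCERAd. WT and GCERAd overlapped (-0.14 ± 0.22, in a fit without a minimum level, since Bhlhe41 was under it here). Among these repressors Bhlhe40 varied least by group, at 60.7 to 127 CPM in WT, 68.4 to 99.6 CPM in GCERAd, 99.5 to 103 CPM in TRACK and 52.9 to 78.2 CPM in GCERAdT. TRACK and GCERAdT did not overlap for Bhlhe40 (log2 difference -0.57 ± 0.12), while each pair of groups next to each other in the order of levels overlapped.

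The 3 effector genes were likewise lowest on average in GCERAdT and highest in TRACK. Usp2 was at 104, 98.2, 91.6, 87.3 and 106 CPM in WT and at 136, 141, 135, 161 and 133 CPM in GCERAd. It was at 189.9, 169 and 164 CPM in TRACK and at 48.7, 52.7, 45.2 and 61.6 CPM in GCERAdT. The 4 groups of Usp2 values did not overlap at any point, the order being TRACK, GCERAd, WT and GCERAdT. Its log2 difference was 0.55 ± 0.08 for GCERAd over WT, 0.84 ± 0.08 for TRACK over WT, -1.73 ± 0.11 for GCERAdT over TRACK and -1.46 ± 0.11 for GCERAdT over GCERAd. Tsku was at 5.99, 6.09, 4.08, 6.63 and 7.71 CPM in WT and at 15.5, 32.2, 23.9, 33.6 and 31.8 CPM in GCERAd. It was at 33.2, 28.9 and 25.2 CPM in TRACK and at 4.49, 4.21, 2.97 and 3.47 CPM in GCERAdT. For Tsku the levels in GCERAd and TRACK overlapped, and so did those in WT and GCERAdT, with a wide gap between these pairs. The log2 difference was 2.18 ± 0.22 for GCERAd over WT, 2.26 ± 0.17 for TRACK over WT, -2.93 ± 0.16 for GCERAdT over TRACK and -2.87 ± 0.24 for GCERAdT over GCERAd. Wee1 was highest in TRACK (34.1 to 35.6 CPM) and lowest in GCERAdT (11.3 to 14.1 CPM), with WT (14.2 to 20.4 CPM) and GCERAd (16.9 to 30.1 CPM) overlapping between them. The log2 difference of Wee1 was 1.03 ± 0.11 for TRACK over WT and -1.39 ± 0.10 for GCERAdT over TRACK.

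Per transcript length the order of abundance changed between groups. In WT, Tef led at 23.8 ± 0.789 FPKM (CPM per kilobase of exon), followed by Usp2 (20.2 ± 1.61), Bhlhe40 (18.7 ± 5.27), Hlf (18.4 ± 2.35) and Dbp (17.1 ± 2.79 FPKM), the last 4 within each other's spread. Wee1 (4.99 FPKM), Nfil3 (3.73), Tsku (2.00), Bhlhe41 (0.911) and Ciart (0.783 FPKM) followed at lower levels. Dbp was second in GCERAd at 37.8 ± 7.97 FPKM and sixth of 10 in GCERAdT at 3.91 ± 0.984 FPKM, below Nfil3 (4.29 ± 1.15 FPKM) by less than their SD. GCERAdT was the only group in which Hlf (18.4 ± 2.72 FPKM) came before Tef (17.0 ± 1.14 FPKM), again within the spread.

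**Figure D2:**
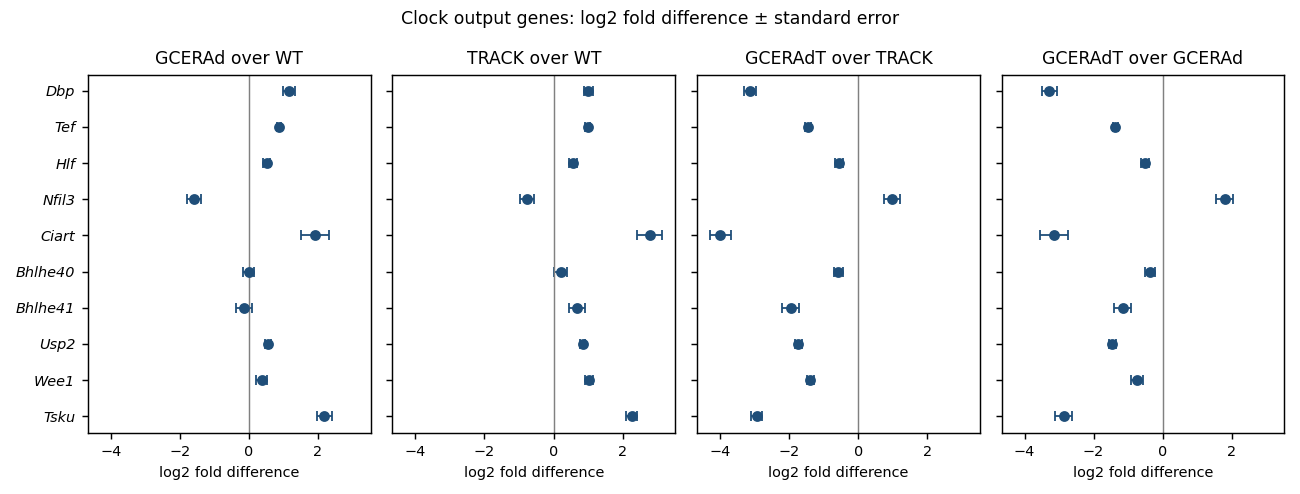
log2 fold difference ± SE (horizontal axes) of the 10 genes in 4 comparisons, with 0 meaning no difference. In GCERAdT over TRACK, Nfil3 is at 0.98 and the other 9 genes lie between -3.99 and -0.56; Bhlhe40 and Bhlhe41 lie near 0 in GCERAd over WT.

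Counted over the group, 9 genes had a mean of at least 1 FPKM in GCERAd or WT. Of these, 6 were higher and 1 was lower in GCERAd than in WT with the edgeR adjusted p under its 0.05 threshold. Of 11581 genes tested, 14.1% were called higher and 13.5% lower. Ciart passed this minimum in each comparison only through the group in which it was higher, and Bhlhe41 did so in those with TRACK. In TRACK over WT, 8 of 10 were higher and 1 was lower, where 23% of 11967 genes were called higher and 22.6% lower. In GCERAdT over TRACK, 1 was higher and 9 were lower, where 2.81% of 11928 genes were called higher and 4.28% lower. In GCERAdT over GCERAd, 1 of 9 was higher and 7 were lower, where 9.39% of 11816 genes were called higher and 9.79% lower (2266 genes in all, and 3731 with the mouse number as a block). Since the genes were chosen with these values known, nothing is read from these counts. The median log2 difference of all 10 genes was 0.54, 0.92, -1.6 and -1.27 in the 4 comparisons, in this order, and that of all genes tested was within 0.01 of 0. Of the 10 genes, 5 lay wholly above and 1 wholly below WT in GCERAd, where 9.63% and 10.5% of all genes tested did. In TRACK, 8 lay wholly above and 1 below WT, where 22.4% and 22% of all genes did. In GCERAdT, 1 lay wholly above and 9 below TRACK (10.9% and 12.3% of all genes), and 1 above and 8 below GCERAd (10.4% and 9% of all genes). GCERAd and TRACK are both set against the same WT libraries, and GCERAdT against both, so these comparisons share samples.

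Core clock genes were not among the 10 and are given with their tests, although this list, like the lists that follow, was also drawn up with earlier results of these data known. Arntl and Npas2, which encode activators, stood opposite to most of the output genes. Of 14 core clock genes with a mean of at least 1 FPKM in GCERAd or WT, 6 were higher and 3 lower in GCERAd (median log2 difference 0.17). Of all genes tested, 14.1% were called higher and 13.5% lower. Arntl and Npas2 passed this minimum in each comparison only through the group in which they were higher. Arntl was at 0.466 FPKM in GCERAd, 0.417 in TRACK, 1.25 in WT and 2.32 in GCERAdT. Arntl was at 6.84 to 10.5 CPM in WT and 2.47 to 4.14 CPM in GCERAd (log2 -1.41 ± 0.17, adjusted p = 0.000128). Per2 was at 6.43 to 8.00 CPM in WT and 17.9 to 22.6 CPM in GCERAd (1.48 ± 0.09, adjusted p = 7.47e-07). Per3 rose likewise (1.30 ± 0.19, adjusted p = 0.000536), as did Cry2 (0.79 ± 0.13, adjusted p = 0.0008), and Npas2 fell (-1.17 ± 0.23, adjusted p = 0.00301). In TRACK over WT, 9 of 15 were higher and 4 lower (median 0.38), against 23% and 22.6% of all genes. Per2 reached 31.8 to 33.9 CPM there (2.19 ± 0.08, adjusted p = 1.81e-07), Cry1 rose from 2.34 to 3.71 CPM to 7.32 to 11.6 CPM (1.89 ± 0.21, adjusted p = 7.95e-05), and Arntl fell to 2.28 to 4.79 CPM (-1.58 ± 0.27, adjusted p = 0.00108).

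In the libraries labelled GCERAdT, Arntl and Npas2 were higher and Per2, Per3, Cry1 and Cry2 lower than in TRACK. Against TRACK, 3 of 15 core clock genes were higher, 7 lower and 5 not called (median -0.42), where 2.81% of all genes were called higher and 4.28% lower. Arntl was at 14.3 to 20.0 CPM, above all other libraries (2.48 ± 0.28 over TRACK, adjusted p = 0.00143), and Npas2 at 11.8 to 27.0 CPM against 2.04 to 3.81 CPM in TRACK (2.73 ± 0.31, adjusted p = 0.00155). Per2 was at 4.14 to 6.78 CPM (-2.64 ± 0.15 over TRACK, adjusted p = 4.82e-05), and Cry1, Cry2 and Per3 also fell (-1.44, -1.28 and -1.26, adjusted p = 0.0037, 0.00026 and 0.00718). Against GCERAd, 5 were higher and 5 lower (median 0.07; 9.39% and 9.79% of all genes), with Npas2 at 2.94 ± 0.28 (adjusted p = 6.61e-05), Arntl at 2.30 ± 0.17 (adjusted p = 1.02e-05) and Per2 at -1.93 ± 0.14 (adjusted p = 9.4e-06). The CPM of Dbp was 4.12 to 6.60 times that of Arntl in WT, 19.1 to 44.2 times in GCERAd, 19.8 to 47.6 times in TRACK and 0.452 to 0.964 times in GCERAdT. Since output and core clock genes follow the hour at which a kidney is taken, and this hour is not given in the sources used here, the part of collection time in these differences was not tested.

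**Figure D3:**
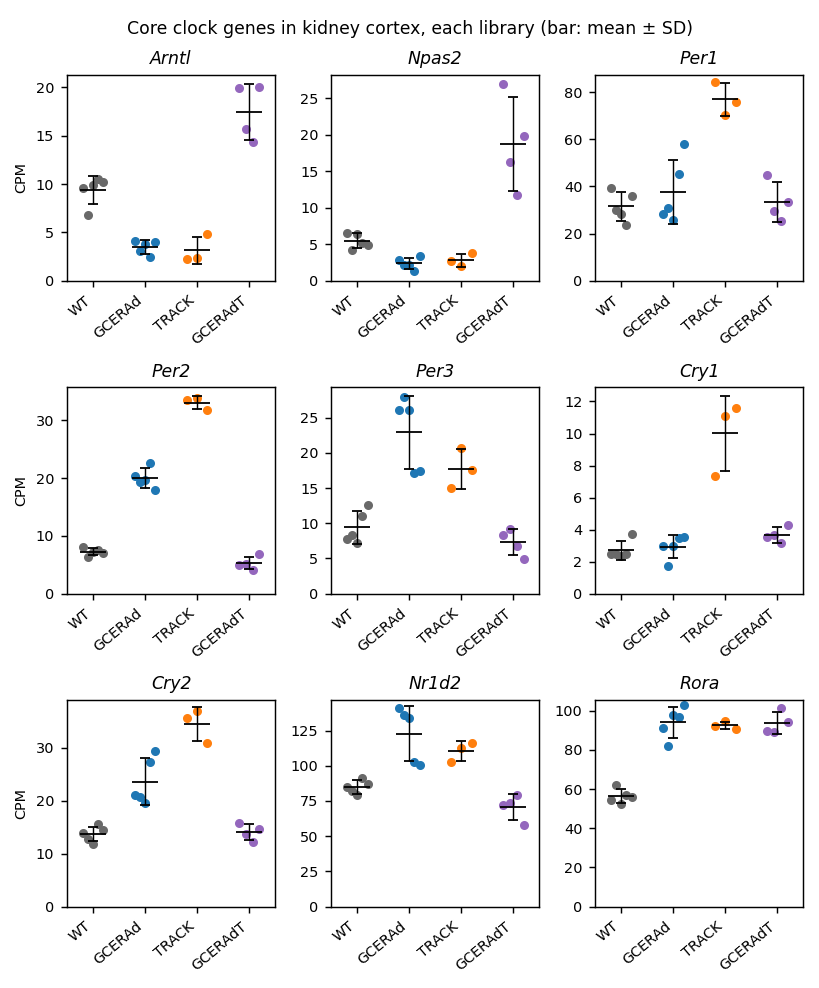
CPM of 9 core clock genes (vertical axes, each from 0) in the 17 libraries, by group. Points are libraries and bars the mean ± SD. Arntl and Npas2 are highest in GCERAdT, and Per2 and Cry2 are highest in TRACK.

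**Figure D4:**
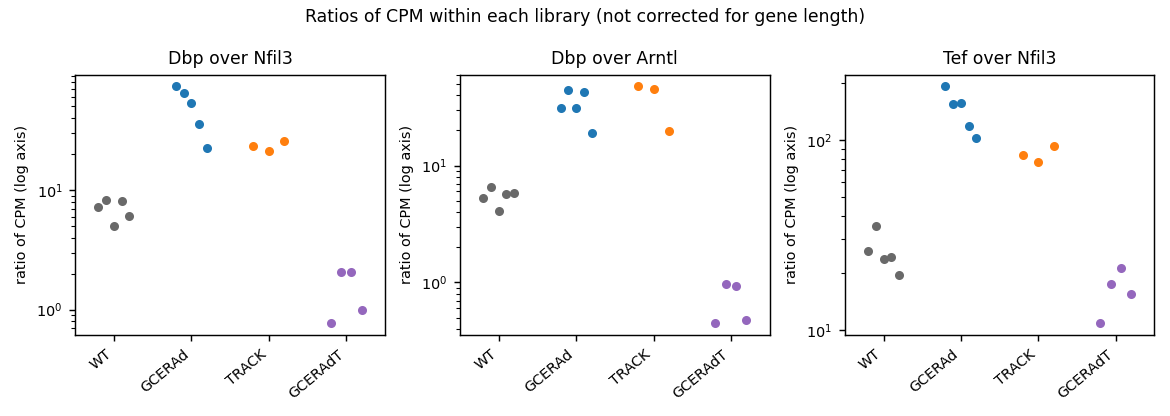
Ratio of the CPM of Dbp to that of Nfil3, of Dbp to Arntl and of Tef to Nfil3 (vertical log axes), by group. Points are libraries. For both ratios with Dbp, GCERAd and TRACK lie above WT and GCERAdT below it.

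Genes that the PAR bZIP factors are known to act on, or that cycle in the renal tubule, were called in both directions in every comparison. Some of these counts were near the share of all genes called. Of the 13 listed, 11 passed the minimum in GCERAd or WT, and 3 were higher and 3 lower in GCERAd (median log2 difference 0.14). Of all genes, 14.1% were called higher and 13.5% lower. In TRACK over WT, 5 of 12 were higher and 3 lower (median 0.32), where 23% of all genes were called higher and 22.6% lower, so that the number lower was near that background. For GCERAdT, 2 of 12 were higher and 3 lower than in TRACK (median -0.56; 2.81% and 4.28% of all genes), and 1 of 11 was higher and 4 were lower than in GCERAd (median -0.33; 9.39% and 9.79% of all genes). The number higher than in GCERAd was thus near that background. With GCERAd 1 to 3 only, 3 were higher and 5 lower in GCERAd than in WT, and 3 were higher and 5 lower in GCERAdT than in GCERAd. Cyp4a10, a fatty acid hydroxylase of this list that was picked after its values were seen, was at 366 to 429 CPM in GCERAd 1 to 3 and at 2901 and 3479 CPM in GCERAd 4 and 5. With the mouse number as a block, 3 were higher and 4 lower in GCERAdT than in GCERAd. Without TRACK 1, 0 were higher and 2 lower in GCERAdT than in TRACK, and without GCERAdT 4, 2 were higher and 6 lower. Alas1, the first enzyme of heme synthesis, was at 110 to 133 CPM in WT, 163 to 284 CPM in GCERAd, 278 to 355 CPM in TRACK and 78.6 to 117 CPM in GCERAdT. It rose in GCERAd (0.73 ± 0.16, adjusted p = 0.00534) and TRACK (1.35 ± 0.09, adjusted p = 3.96e-06) over WT and fell in GCERAdT against TRACK (-1.68 ± 0.15, adjusted p = 0.000358) and GCERAd (-1.07 ± 0.20, adjusted p = 0.00482). Cyp2a4, a steroid hydroxylase, rose in GCERAd (1.90 ± 0.31, adjusted p = 0.000917) and TRACK (1.29 ± 0.35, adjusted p = 0.0126) and was lower in GCERAdT than in both (-1.13 and -1.75, adjusted p = 0.00387 and 6.63e-05). Cyp2a5 was at 55.5 to 117 CPM in WT and 87.7 to 109 CPM in TRACK (0.04 ± 0.22, adjusted p = 0.903). It was higher in GCERAd than in WT (1.49, adjusted p = 0.00472) and lower in GCERAdT than in TRACK (-0.93, adjusted p = 0.0151) and GCERAd (-2.40, adjusted p = 0.00113). Its reads are hard to tell from those of Cyp2a4, its near-identical neighbour, so both values are uncertain. Por, the electron donor of the cytochromes P450, passed the test in 1 of these 4 comparisons, GCERAdT over GCERAd (-0.57 ± 0.10, adjusted p = 0.00385).

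Water channels and the vasopressin receptor did not share this order. Avpr2 was at 19.4 to 28.4 CPM in WT and lower in GCERAd (11.3 to 14.4 CPM; -0.90 ± 0.11, adjusted p = 0.000136) and TRACK (8.43 to 10.6 CPM; -1.28 ± 0.13, adjusted p = 6e-05), and higher in GCERAdT than in TRACK (0.73 ± 0.14, adjusted p = 0.0156). Aqp4 was likewise higher in GCERAdT than in TRACK (1.70 ± 0.31, adjusted p = 0.0121). Neither passed the test there without TRACK 1, nor Avpr2 without GCERAdT 2 (adjusted p up to 0.0621 for Avpr2 and 0.0514 for Aqp4). Aqp2, the vasopressin-regulated water channel of the collecting duct, was lower than in WT in GCERAd (-1.32 ± 0.30, adjusted p = 0.00663) and TRACK (-1.20 ± 0.12, adjusted p = 4.82e-05). The 4 principal cell markers, Aqp2 among them, summed to 881 to 1004 CPM in WT, 354 to 597 CPM in GCERAd, 482 to 548 CPM in TRACK and 341 to 502 CPM in GCERAdT, and the part of the number of these cells was not tested.

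**Figure D5:**
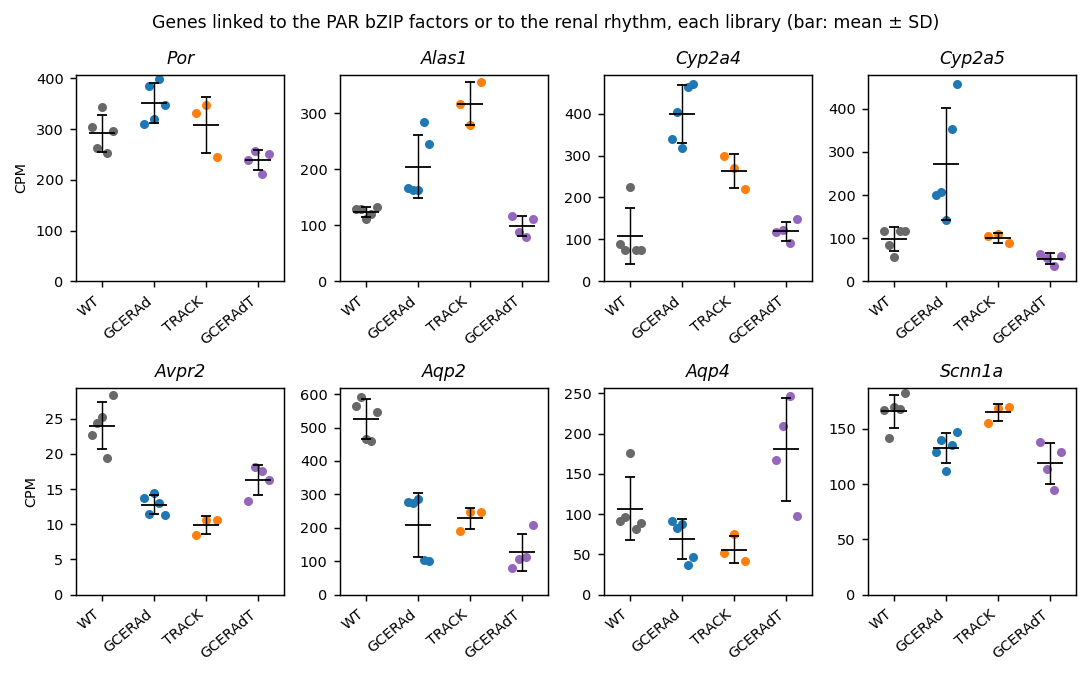
CPM of 8 genes linked to the PAR bZIP factors or to the renal rhythm (vertical axes, each from 0) in the 17 libraries, by group. Points are libraries and bars the mean ± SD. Alas1 follows the order of Dbp except that TRACK is above GCERAd on average, whereas Avpr2 and Aqp2 are highest in WT.

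Glucocorticoids are a daily signal to the kidney. Of 12 genes that respond to them, 9 were higher and 0 lower in TRACK than in WT (median log2 difference 0.95), where 23% of all genes were called higher and 22.6% lower. In GCERAdT, 0 were higher and 7 lower than in TRACK (median -0.70; 2.81% and 4.28% of all genes). In GCERAd over WT they went both ways, 3 higher and 4 lower (median 0.09; 14.1% and 13.5% of all genes), as they did in GCERAdT over GCERAd, 4 higher and 3 lower (median 0.42; 9.39% and 9.79%). With the mouse number as a block, 7 were higher and 3 lower in GCERAdT than in GCERAd. With GCERAd 1 to 3 only, 3 were higher and 7 lower in GCERAd than in WT, with possible repeat libraries summed 3 were higher and 2 lower, and without TRACK 1 only 4 were lower in GCERAdT than in TRACK. Pdk4 and Ddit4 rose most in TRACK over WT (3.65 ± 0.27 and 2.80 ± 0.17, edgeR adjusted p = 6.78e-06 and 2.52e-06). Neither was called lower in GCERAdT than in TRACK (-0.74 and -0.65, adjusted p = 0.0946 and 0.0993). In 14 alternatives Pdk4 passed there in 1 and Ddit4 in 4. Cdkn1a also rose in TRACK (1.51 ± 0.20) and was at 0.46 in GCERAdT against TRACK (adjusted p = 0.137). Fkbp5 rose in TRACK (1.77 ± 0.22 over WT, adjusted p = 0.000183) and was lower in GCERAdT (-2.09 ± 0.29 against TRACK, adjusted p = 0.00384), and Tsc22d3 (GILZ) did the same (1.41 ± 0.11, adjusted p = 7.71e-06, and -1.44 ± 0.09, adjusted p = 5.66e-05). Targets of HIF, in contrast, separated TRACK and GCERAdT from the rest: of 14, 11 were higher in TRACK than in WT, 14 in GCERAdT than in GCERAd, 3 in GCERAdT than in TRACK, and 3 of 12 in GCERAd than in WT, where 1 was lower. Of all genes, 23%, 9.39%, 2.81% and 14.1% were called higher in these comparisons. The 3 higher in GCERAdT than in TRACK were 0 without any one of TRACK 1, 2 or 3 or of GCERAdT 1 or 2. The part of glucocorticoid and HIF signals in the levels of the output genes was not tested.

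The GCERAd libraries differed among themselves. GCERAd 4 and 5 had less Dbp (76.2 and 105 CPM) than GCERAd 1 to 3 (118 to 137 CPM) and less Ciart (2.73 and 4.84 CPM against 7.26 to 9.66 CPM), and more Nfil3 (2.97 and 3.40 CPM against 1.75 to 2.19 CPM) and Wee1 (25.0 and 30.1 CPM against 16.9 to 18.7 CPM). Tef, at 348 and 352 CPM against 325 to 345 CPM, hardly differed in size. The core clock genes Per3 (17.2 and 17.4 CPM against 26.1 to 27.9 CPM) and Per1 (45.1 and 58.0 CPM against 25.8 to 30.7 CPM) also lay apart, as did Pdk4 (216 and 232 CPM against 9.49 to 17.3 CPM). Without these 2 libraries the log2 difference over WT was 1.34 ± 0.12 for Dbp, 2.29 ± 0.36 for Ciart, -1.89 ± 0.20 for Nfil3, 1.98 ± 0.23 for Tsku and 0.10 ± 0.12 for Wee1, the last against 0.37 ± 0.16 with all 5.

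Across the 17 libraries, the 8 genes whose log2(CPM + 1) was most like that of Dbp, of 13303 genes with a mean of at least 1 CPM, were Coq10b (Pearson r = 0.953), Usp2 (0.942), Tef (0.911), Ppp1r16b (0.906), Osbpl9 (0.905), Slain2 (0.905), Naa60 (0.897) and Nr1d2 (0.893). For Nfil3, 7 of the 8 were Tenm4 (0.936), Gpr85 (0.926), Zfp395 (0.897), Klhl29 (0.896), Gm53 (0.896), Scnn1b (0.890) and D630039A03Rik (0.882). The 17 points fall into 4 groups, so these values mostly describe differences between groups. With each group's mean subtracted, 0 of the 8 genes were shared for Dbp and 0 for Nfil3. Taken within groups in this way, r with Dbp was 0.806 for Ciart, 0.708 for Nr1d2, -0.299 for Tef and -0.0369 for Usp2.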

How the data were processed

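Total RNA from mouse kidney cortex (RNA integrity number of at least 9) was made into TruSeq Stranded mRNA libraries, for which the methods give 51-base read pairs. The yield of bases per read cluster in the paper's supplement differs between samples, so a single read length may not hold for all. The deposited file holds whole-number counts per gene, which the authors made with bcl2fastq 2.20, cutadapt, STAR and HTSeq on GRCm38, as the submitters' processing notes name them, and per the file headers its columns carry the sample names. Annotation release and strand setting are not given in the sources used here, so antisense partners cannot be told apart. Depth was 53688512 to 71364561 counts per library (median 58709786). An exact 0 allows up to 3 counts in a library, and such limits cover counting error only.

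Each comparison was fitted on its own groups with edgeR 4.0.16 (R 4.3.3; trimmed mean of M values, quasi-likelihood F test, Benjamini-Hochberg adjustment over all genes tested, threshold 0.05) on genes with a mean of at least 1 FPKM in any group compared, which was computed from exon lengths of GENCODE M21. A gene near this minimum could thus enter only through the group in which it was higher. Genes under this minimum took their values from the same fit without it. The difference between comparisons was a contrast in 1 fit of all 4 groups. DESeq2 1.42.0, principal components in base R and the alternatives of the closing section were also run. On simulated data with 200 genes changed by 1 on the log2 scale, 89% were recovered for GCERAd over WT and 85% for GCERAdT over TRACK. Members and gene lists were chosen with earlier results of these data known. Named genes are all 10 members and, from each other list, at most 6 that passed the threshold with the largest difference (or the most abundant), plus genes most like Dbp and Nfil3; 2 genes that this rule names are not reported here. The labels speak of 3 to 4 mice per cohort while WT and GCERAd have 5 libraries, so some may be repeat libraries of 1 mouse. WT 1 and 2 (chi-square per degree of freedom 66.27) and GCERAd 2 and 3 (78.39) differed beyond counting noise, as libraries made anew from 1 mouse also would, and in each pair the library kind (share of processed pseudogene counts) differs. The adipocyte gene Plin1 was at 3.63 and 3.12 CPM in GCERAd 2 and 3 and at most 0.206 CPM in other GCERAd libraries. They were counted separately, and summed as an alternative. Deviations from group means correlated between GCERAd and GCERAdT libraries of the same number (r = 0.41, 0.541, 0.518 and 0.381 for numbers 1 to 4). Each of these pairs is also of 1 library kind. Libraries of unlike number but the same kind reached similar values for GCERAd 1 with GCERAdT 2 (0.448) and GCERAd 2 with GCERAdT 1 (0.439). The value was low for GCERAd 3 with GCERAdT 4 (0.0743), also of the same kind. A pairing of mice by number is thus not shown. In the other comparisons, same-numbered libraries did not deviate together. Nothing else says that libraries of 1 group came from separate litters or days. Promoter letters were read from RefSeq windows of GRCm38.p6.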

Additional observations from a re-analysis of the deposited data

Results flagged for a closer look

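Of 57 groups of 4 or 5 values examined, 3 held a library far from the rest of its group, about as many as chance gives at 1 in 20. They were Usp2 in GCERAd 4 (161 CPM, above the other GCERAd libraries), Arntl in WT 2 (6.84 CPM, below the other WT libraries) and Cry1 in WT 5 (3.71 CPM, above).

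For 6 output genes every library labelled GCERAdT lay on 1 side of TRACK and every GCERAd library on the opposite side of WT. The log2 difference of GCERAdT over TRACK minus that of GCERAd over WT was -4.29 for Dbp, -2.34 for Tef, -1.07 for Hlf, 2.58 for Nfil3, -2.28 for Usp2 and -5.11 for Tsku. These genes were chosen with such values known, and the difference between the comparisons was not tested for them.

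For core clock genes the same contrast was tested (edgeR quasi-likelihood test, adjusted over 12208 genes, of which 12.3% were called higher and 12.8% lower). It was 3.90 ± 0.33 (SE) for Arntl (adjusted p = 5.62e-07), 3.91 ± 0.40 for Npas2 (3.93e-06), -4.11 ± 0.17 for Per2 (3.86e-11), -2.56 ± 0.31 for Per3 (2.03e-05), -1.57 ± 0.31 for Cry1 (0.00179) and -2.07 ± 0.18 for Cry2 (6.52e-07).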

How the results depend on the processing

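The direction of all 10 genes was the same in every alternative for TRACK over WT, GCERAdT over TRACK and GCERAdT over GCERAd (160 of 160, 140 of 140 and 190 of 190 values). For GCERAd over WT it was the same for 192 of 200 values, and the rest were of Bhlhe40 and Bhlhe41, whose log2 difference ran from -0.11 to 0.16 and from -0.32 to 0.03. With GCERAd 1 to 3 only, an alternative chosen after seeing the data, Wee1 was at 0.10 over WT and at -0.45 for GCERAdT over GCERAd. The number of genes called in GCERAdT over TRACK was 846 and depended most on the processing: it was 1562 with DESeq2, 1424 in mice with shared numbers without a block (also chosen after seeing the data), and 379 to 1424 with 1 mouse left out, lowest without GCERAdT 2 (379), TRACK 1 (396) and TRACK 2 (404), then GCERAdT 3 (516) and GCERAdT 1 (533), and highest without GCERAdT 4. The differences of Hlf, Nfil3 and Bhlhe40 were -0.66 to -0.51, 0.81 to 1.10 and -0.64 to -0.46 there. Their calls held in 9, 8 and 9 of the 14 alternatives, so the counts of output genes called depended on the processing too. For TRACK over WT, the difference of Bhlhe41 was 0.59 to 1.07, and its call held in 9 of 16 alternatives, that of Nfil3 in 15. For GCERAdT over GCERAd, leaving out 1 library gave 1427 (without GCERAdT 2) to 2336 genes against 2266.

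Mouse numbers recur in all groups. In GCERAd and GCERAdT, same-numbered libraries deviated together (r from 0.381 to 0.541). Some of unlike number but the same library kind did so too (0.448 for GCERAd 1 with GCERAdT 2). The replicate number as a block gave 3731 genes for GCERAdT over GCERAd against 2266 without, or 2336 in the same mice without it. It changed the test of none of the genes named with a test for that comparison in the report. In the other comparisons r was at most 0.0506, so the mice share only a number. With the block, 2106 genes were called for GCERAd over WT (3198 without). For TRACK over WT there were 3382, against 4098 in the same mice without the block and 5458 in all libraries. For GCERAdT over TRACK there were 745, of which 49.7% were higher. The same mice without the block gave 1424 there, of which 49.3% were higher, and all libraries gave 846, of which 39.6% were higher. With possible repeat libraries summed, 2760 genes were called for GCERAd over WT and 1735 for GCERAdT over GCERAd. Of the other genes given with a test in the report, Cyp2a4 in TRACK over WT did not pass the threshold in mice with shared numbers, with or without the block (adjusted p up to 0.0706), whereas Por in GCERAd over WT passed it with DESeq2 and without WT 3 or GCERAd 1 (adjusted p from 0.0275), and in GCERAdT over TRACK with DESeq2 and without TRACK 3 (from 0.0249). With GCERAd 1 to 3 only, Cyp4a10 (-1.77) and Pdk4 (-1.48) turned from higher to lower in GCERAd than in WT. Neither was called higher with all GCERAd libraries (Pdk4 at 1.33, edgeR adjusted p = 0.25). Cyp4a10 also turned in the difference between comparisons. It was 1.68 there with the block and with shared numbers without it, and 1.60 with GCERAd 1 to 3 only. Core clock counts were 6 to 7 higher and 3 to 4 lower for GCERAd over WT, 8 to 10 and 3 to 4 for TRACK over WT, 3 and 6 to 8 for GCERAdT over TRACK, and 3 to 5 and 4 to 5 for GCERAdT over GCERAd, where 3 were higher without GCERAd 2, GCERAd 3 or GCERAdT 2. Library kind, set by the share of processed pseudogene counts, could not be fitted with TRACK, which held 1 kind. Depth limits Ciart most, with a lowest count of 35 in a library.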

Other observations

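Some clock genes did not follow the order of Dbp or its mirror image. Rora, which encodes an activator at ROR elements, was at 52.6 to 62.1 CPM in WT and rose in GCERAd (0.75 ± 0.08 SE, edgeR adjusted p = 4.06e-05). It was at 90.8 to 94.6 CPM in TRACK and at 89.3 to 101 CPM in GCERAdT, whose values overlapped (log2 difference 0.03 ± 0.08, adjusted p = 0.861). Nr1d1 and Nr1d2, whose proteins both repress at ROR elements, parted. Nr1d1, named here after its values were seen, was highest in WT (107 to 127 CPM), lower in GCERAd (64.8 to 99.4 CPM) and TRACK (76.9 to 96.8 CPM) and lowest in GCERAdT (51.2 to 62.4 CPM). Nr1d2 was at 79.1 to 91.3 CPM in WT, 101 to 141 CPM in GCERAd, 103 to 117 CPM in TRACK and 57.8 to 79.3 CPM in GCERAdT.

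Cyp2b10, a cytochrome P450 that DBP, TEF and HLF are known to influence in liver, had no count in any WT library. It was at 0.104 to 1.99 CPM in GCERAd, 0.687 to 9.94 CPM in TRACK and 0.0835 to 5.16 CPM in GCERAdT, with a wide spread within each of these groups.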
